A study of Mus musculus with 31 samples.

Results

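The genes described here are 10 erythroid genes, read by 20 probe sets of the 45037 on an Affymetrix whole-genome mouse array once control probe sets are set aside (10 of 18193 genes with a probe set of their own). They are the embryonic globins Hba-x, Hbb-bh1 and Hbb-y, the heme synthesis enzymes Alas2 and Fech, the membrane proteins Slc4a1 and Epb42, the transcription factors Klf1 and Gata1, and the TRIM protein Trim10. Every probe set annotated to 1 of these symbols was taken. The genes were chosen from their levels in the third wild-type (WT) sample of the Cdkn1a experiment, so the values of that sample are given as a description, without a test.

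Expression was measured in fetal liver hematopoietic stem cells (FL HSCs) and mouse embryonic fibroblasts (MEFs) at 14.5 days post-coitus, to ask what loss of 1 allele of the coactivators Crebbp or Ep300, or of both alleles of the cell cycle inhibitor Cdkn1a, does to them. Each FL HSC sample was a sort from 15 pooled embryos, taken as lineage-negative cells (the red cell antigen Ter119 was among those removed) with SCA1, AA4.1 and high KIT, and its 12 ng of RNA were amplified. The 4 experiments were 2 Crebbp+/- against 2 Crebbp+/+ FL HSC samples and 2 Ep300+/- against 2 Ep300+/+ FL HSC samples, all C57BL/6 with 2 technical replicate arrays a sample, then 4 Cdkn1a-/- against 3 Cdkn1a+/+ FL HSC samples labelled B6/129Sv, and 4 Crebbp+/- against 4 Crebbp+/+ MEF samples from C57BL/6 embryos, 1 embryo a sample, with 1 embryo of each genotype per litter. The mutant alleles were present in every cell of the embryo, and the Cdkn1a-/- and Cdkn1a+/+ mice were obtained as separate stocks, so that allele and stock cannot be told apart in that experiment. Values are log2 GCRMA intensities, normalized apart in each experiment, so levels are compared only within an experiment.

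Red cell precursors make hemoglobin from alpha-like and beta-like globin chains and heme. In the mouse embryo the first, yolk sac-derived wave of red cells carries the embryonic chains, while the fetal liver makes red cells with adult chains, and nucleated embryonic red cells still circulate through the liver at mid-gestation. GATA1 and KLF1 are the transcription factors best known for driving globin, heme and membrane genes as these cells mature, and a stem cell sorted free of lineage markers is taken to lie upstream of that programme.

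In most FL HSC and MEF samples the members other than Fech, and in the Cdkn1a experiment other than Fech and Gata1, read below the study's minimum level. A level of log2(100), or 6.64, was the minimum the study set for a measured probe set, and the lower quartile of all probe sets lay between 2.11 and 2.54 over the 4 experiments. In the Crebbp FL HSC, Ep300 FL HSC and Crebbp MEF experiments 1 of the 10 genes, Fech, reached the minimum in any sample, and 9 did not. In the Cdkn1a experiment all 10 reached it in at least 1 sample, through 17 of the 20 probe sets, and 3 probe sets, all of Fech, reached it in every sample. The sort markers and stem cell genes stood in contrast: 7 to 9 of the 9 with a probe set of their own reached the minimum in each FL HSC sample.

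The third WT sample of the Cdkn1a experiment stood apart from its other 6 samples in 9 of the 10 genes, all but Gata1. Hbb-y, the early embryonic beta-like chain, read 14.12 on probe set 1436717_x_at in WT sample 3, and between 2.17 and 2.19 in the 4 null and 2 other WT samples. With the minimum of 100 intensity units as the bound for samples below it, that is at least 178-fold higher in WT sample 3. The other Hbb-y probe sets read 14.04 (1436823_x_at) and 12.53 (1450621_a_at) in WT sample 3, against at most 2.35 and 2.12 in the other 6. Hba-x, the embryonic alpha-like chain, read 11.68 in WT sample 3 and 1.98 to 1.99 elsewhere, at least 32.8-fold higher. The 3 probe sets of Hbb-bh1, a second embryonic beta-like chain, read 9.91, 10.05 and 10.20 in WT sample 3, against at most 2.14 in the others. Probe sets of the globins whose names end in _x_at can share sequence with other transcripts, so the 2 beta-like genes may not be fully separate measurements. On build GRCm38.p6, Hba-x lies at chr11:32276600-32278116, and Hbb-bh1 and Hbb-y lie in the beta globin cluster at chr7:103841638-103843162 and chr7:103851754-103853207.

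Both heme synthesis members were also higher in that sample. Alas2, the erythroid form of the first and rate-limiting enzyme of heme synthesis, read 10.97 in WT sample 3 and 1.95 to 1.96 in the other 6, at least 20.1-fold higher. Fech, which inserts iron into protoporphyrin as the last step and is used in all cells, was the member with a level everywhere. Its brightest probe set, 1418699_s_at, read 12.42 in WT sample 3, against 10.34, 10.43, 10.26 and 10.37 in null samples 1 to 4 and 10.27 and 10.55 in WT samples 1 and 2. WT sample 3 thus lay 2.07 log2 units, or 4.19-fold, above the median of the other 6. Probe sets 1418698_a_at and 1449181_at read 11.58 and 10.14 in WT sample 3, with 9.29 to 9.71 and 7.17 to 8.12 in the others, and the fourth Fech probe set, 1427696_at, stayed at 2.13 to 2.14 in all 7. Alas2 lies at chrX:150547417-150570622.

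The membrane genes gave the same picture. Slc4a1, the band 3 anion exchanger, read 12.97 in WT sample 3 on its brightest probe set, 1434502_x_at, against 2.36, 2.83, 2.70 and 4.53 in null samples 1 to 4 and 2.69 and 2.68 in WT samples 1 and 2, at least 80.1-fold higher. Epb42, protein 4.2, which ties band 3 to the membrane skeleton, read 7.31 in WT sample 3 on 1417337_at and 2.24 to 2.27 elsewhere, so that it passed the minimum by 0.67. One probe set of each gene, Slc4a1 1431743_a_at at 2.32 and Epb42 1417338_at at 2.10 to 2.11, did not separate any sample. Slc4a1 lies at chr11:102348820-102365281 and Epb42 at chr2:121017891-121036877.

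Of the regulators, Klf1 read 9.68 in WT sample 3, against 3.78, 3.78, 4.08 and 4.58 in null samples 1 to 4 and 3.78 in both other WT samples, at least 8.17-fold higher. Trim10, a RING-type TRIM protein first described in red cell differentiation, read 9.35 in WT sample 3 and 2.06 to 2.07 in the other 6. Gata1 was the exception in the group. It read 9.18 in WT sample 3, but 6.70, 7.35, 7.52 and 9.06 in null samples 1 to 4 and 6.25 and 7.70 in WT samples 1 and 2. WT sample 3 was therefore only 0.12 above null sample 4, while it lay 1.74 above the median of the other 6. Klf1 lies at chr8:84901982-84905291, Gata1 at chrX:7959260-7976663 and Trim10 at chr17:36869496-36877833.

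**Figure D1:**
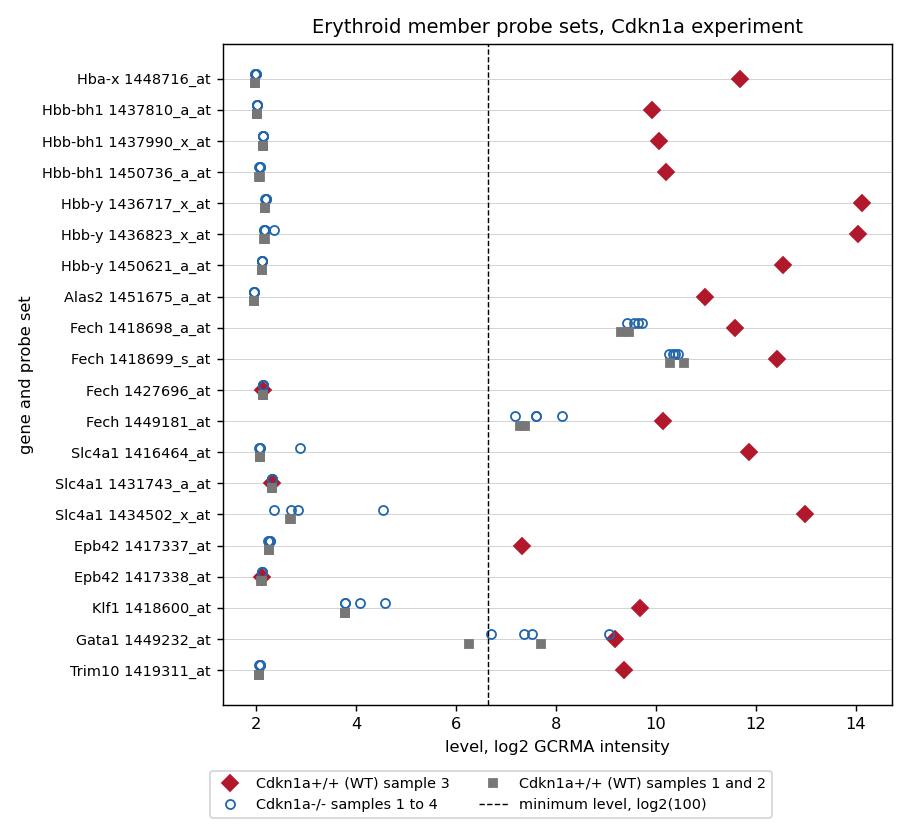
Levels (log2 GCRMA intensity, horizontal axis) of the 20 probe sets of the 10 genes (vertical axis) in the Cdkn1a experiment, as red diamonds for WT sample 3, open circles for the 4 Cdkn1a-/- samples and squares for WT samples 1 and 2; the dashed line is the minimum of log2(100). WT sample 3 lies more than 1 log2 unit above every other sample on 16 of the 20 probe sets, from Epb42 at 7.31 to Hbb-y at 14.12, and on Gata1 it lies beside null sample 4 (9.18 and 9.06).

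On 16 of the 20 member probe sets WT sample 3 exceeded the highest of the other 6 samples by more than 1 log2 unit, and on 13 by more than 5. Of all 20962 probe sets that reached the minimum in some sample of the experiment, 798 (3.81%) had WT sample 3 more than 1 above the next sample and 205 (0.978%) more than 5. Since these levels chose the genes, the member counts describe the choice. Over all 20962, the number more than 1 above every other sample was 68 for WT sample 1 and 18 for WT sample 2. For null samples 1 to 4 it was 6, 5, 58 and 19. The 5 genes outside the members with the widest gap between WT sample 3 and the next sample were Snap25 (13.11 against at most 2.16), Apoh (12.42 against at most 2.09), C5ar1 (12.01 against at most 2.23), Tent5c (11.37 against at most 2.30) and Ermap (10.90 against at most 2.31). Ermap encodes a red cell adhesion protein, and Apoh a plasma protein made by hepatocytes.

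Reference promoters of 4 members that were high in WT sample 3 and below the minimum in its other 6 samples are shown because GATA1 and KLF1 are themselves members. RefSeq (build GRCm38.p6) windows were held for 7 of the 10 genes. Epb42 and Trim10 also fit this description and had windows, which are counted below but not printed. Each line is the 250 bases before the annotated start, on the strand of the gene, with capitals for the GATA words (AGATAA or AGATAG, and also TGATAA or TGATAG) and for CACCC words, searched on both strands (a CACCC word on the opposite strand can share bases with a GATA word, which occurs in none of the windows shown). The windows lie at chr11:32276350-32276599 on the plus strand (Hba-x), chr7:103853208-103853457 on the minus strand (Hbb-y), chrX:150547167-150547416 on the plus strand (Alas2) and chr8:84901732-84901981 on the plus strand (Klf1).
Hba-x: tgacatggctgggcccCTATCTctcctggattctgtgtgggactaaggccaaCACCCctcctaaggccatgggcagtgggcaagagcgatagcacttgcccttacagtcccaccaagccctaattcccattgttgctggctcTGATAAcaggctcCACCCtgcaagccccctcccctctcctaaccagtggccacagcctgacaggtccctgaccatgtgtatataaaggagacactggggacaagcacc
Hbb-y: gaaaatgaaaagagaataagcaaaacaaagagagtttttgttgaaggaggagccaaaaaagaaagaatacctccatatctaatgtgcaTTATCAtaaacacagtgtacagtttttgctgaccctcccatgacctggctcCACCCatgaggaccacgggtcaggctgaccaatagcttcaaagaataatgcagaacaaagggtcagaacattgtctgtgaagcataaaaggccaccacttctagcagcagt
Alas2: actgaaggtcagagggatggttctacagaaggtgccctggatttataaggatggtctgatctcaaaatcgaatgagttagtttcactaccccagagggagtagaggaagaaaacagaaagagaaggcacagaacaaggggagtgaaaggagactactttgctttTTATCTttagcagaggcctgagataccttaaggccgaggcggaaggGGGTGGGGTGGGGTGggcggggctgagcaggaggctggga
Klf1: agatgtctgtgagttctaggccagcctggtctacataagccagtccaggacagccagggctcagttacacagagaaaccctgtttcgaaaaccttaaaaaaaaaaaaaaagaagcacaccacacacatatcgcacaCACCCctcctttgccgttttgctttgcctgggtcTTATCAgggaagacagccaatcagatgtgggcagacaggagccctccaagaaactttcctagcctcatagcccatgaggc
A GATA word was found in 6 of the 7 member windows (all but that of Gata1) and a CACCC word in 6 (all but that of Epb42), with both in 5. The 4 windows printed are all among those 5. Of 32536 RefSeq promoter windows of the same length, 26.5% held a GATA word, 52.1% a CACCC word and 11.8% both. In Hbb-y the GATA word lay 162 to 157 bases and the CACCC word 111 to 107 bases before the start. In Klf1 the GATA word lay 80 to 75 bases before it, and in Alas2 3 CACCC words on the opposite strand lay between 40 and 26 bases before it. A match is a run of letters, and no binding was measured in these data.

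Other erythroid genes behaved unevenly in WT sample 3. Among 15 other membrane genes with a probe set of their own (of 18 listed), 11 were more than 1 log2 unit above the highest of the other 6 samples, with a median difference from the other 6 of 3.83. Ermap was the highest at 8.80, and Gypc, a glycophorin found in many cell types, the lowest at -0.17. Among 14 genes of heme synthesis and iron handling (of 15), 3 were more than 1 above, with a median of 0.50. Hmox1, which degrades heme and is strong in macrophages, was the highest of them at 4.33, and Slc25a38, the mitochondrial glycine carrier, the lowest at -0.03. Among 18 other erythroid transcription and signalling genes (of 20), 3 were more than 1 above, with a median of -0.02. Car1, a red cell carbonic anhydrase, was the highest at 4.83 and Zfpm1, the GATA1 cofactor FOG1, the lowest at -0.97.

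Markers of other fetal liver cells moved with the erythroid genes in WT sample 3. In the bulk samples here, more cells of a type and more RNA per cell cannot be told apart. Of 10 fetal hepatocyte genes, 9 were more than 1 log2 unit above the highest of the other 6, led by Ttr (8.36 above their median) with Hnf4a lowest (0.90), and their summed intensity was 115563 in WT sample 3 and 3646 to 7164 in the others. Of 12 macrophage genes, 10 were, led by C1qb (8.56), with Cd163 at 0.00, and their sums were 22342 in WT sample 3 and 5124 to 10769 in the others. Of 11 granulocyte and monocyte genes, 6 were, led by Ngp (9.99), with Mpo at -0.07 and sums of 235331 in WT sample 3 and 48140 to 78674 in the others. Of 8 megakaryocyte genes, 2 were, led by Ppbp (6.21), with Selp at -1.70. None of the 9 sort marker and stem cell genes was, and their sum was 60688 in WT sample 3, the lowest of the experiment, against 69900 to 85109 in the others. Their differences ran from -1.73 (Slamf1) to -0.01 (Mecom). For the lineage antigens with a probe set of their own, differences ran from -0.59 (Cd5) to 0.24 (Ptprc). Fibroblast genes ran from -0.60 (Thy1) to 0.27 (Col1a1). The part of each cell type in the erythroid levels was not tested.

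**Figure D2:**
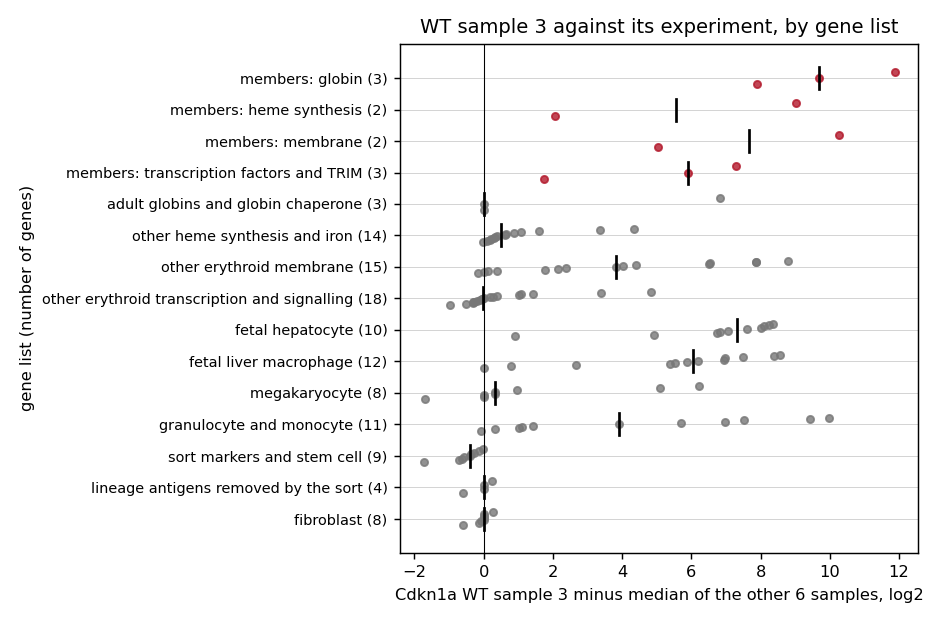
Each point is 1 gene, by its brightest probe set, placed by its level in Cdkn1a WT sample 3 minus the median of the other 6 samples of the experiment (log2, horizontal axis), in rows by gene list with the number of genes in brackets; red points are the 10 member genes and the upright bar is each list's median. The member globins have a median of 9.70 and hepatocyte and macrophage genes medians of 7.33 and 6.04, while sort marker and stem cell genes lie at or left of 0 (median -0.39).

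With WT sample 3 left out, 4 member probe sets of 2 genes could still be tested between Cdkn1a-/- and WT FL HSCs and 0 of them were called by limma, where a call needs an adjusted p under 0.05 and a fold over 1.5. Their unadjusted p ran from 0.128 to 0.609. Of all 20460 probe sets tested, 83 were called (0.406%). For Gata1 the null samples averaged 7.66, against 6.98 in WT samples 1 and 2, a difference of 0.68 ± 0.72 (SE, adjusted p = 1.0 by limma) with a 95% interval from -1.09 to 2.45. For Fech 1418699_s_at the difference was -0.06 ± 0.11, with an interval from -0.33 to 0.21 (limma adjusted p = 1.0), and for 1418698_a_at it was 0.21 ± 0.116, from -0.08 to 0.49 (limma adjusted p = 0.96). Beside these, 6 of 6 tested hepatocyte genes had an unadjusted p under 0.05 with 0 called by limma. Of the 6, 5 were higher in the null samples, and the median difference of the 6 was 3.03. WT samples 1 and 2 each had only 2 of the 10 hepatocyte genes at the minimum. Most of the 6 thus passed the level filter only through null samples, so nothing is read from that count or median. Of all 20460 probe sets, 1288 had an unadjusted p under 0.05. With all 7 samples, 17 member probe sets passed the minimum, 0 were called, and 85 of all 20962 were (0.405%). Of these 17, 13 passed only through WT sample 3, whose levels chose the genes, so nothing is read from that count. The 7-sample differences of null minus WT ran from -3.97 (Hbb-y 1436717_x_at) to -0.05 (Gata1), with WT sample 3 inside the WT mean, and are no result about the genotype.

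Among the other 6 samples, null sample 4 carried most of what variation there was. Member probe sets spanned 0.25 log2 units or more over these 6 in 7 cases, and null sample 4 was the highest in 6 of them. It read 4.53 for Slc4a1, 4.58 for Klf1, 9.06 for Gata1 and 8.12 for Fech 1449181_at, each the highest of the 6, while Hbb-y 1436717_x_at (2.19), Hba-x (1.99) and Alas2 (1.96) were at the bottom of the range there. Its summed hepatocyte intensity was 5889, within the range of the null samples (3646 to 7164), its macrophage sum of 5124 was the lowest and its granulocyte and monocyte sum of 67656 the highest among the nulls. Only 1 of the 12 macrophage genes reached the minimum in any of these 6 samples, so that sum is no broad measure of the list.

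Adult globin signal followed the embryonic globins in WT sample 3 only in part. Of 9 listed adult globin and chaperone genes, 3 had a probe set of their own, and the probe sets shared by several adult globin genes are given by their type only, chosen after their values were seen. Hba-a2, on 1427219_at, was high in every sample of the experiment, at 13.20 to 13.55 in the null samples and 13.15 to 13.44 in the WT samples, with WT sample 3 at 13.36. Hbb-b2, on 1427865_at, read 14 in WT sample 3 and 3.47 to 9.03 in the other 6. Its second probe set, 1427866_x_at, stayed below the minimum, at 2.61 in WT sample 3 and 2.12 to 2.15 in the other 6. Hba-a1, on 1453574_at, read 2.08 in all 7 samples. The probe set shared by adult beta globin genes, 1417184_s_at, read 2.45, 9.41, 8.17 and 10.80 in null samples 1 to 4, against 14.24, 13.73 and 15.59 in WT samples 1 to 3. The difference of null minus WT was -6.28 ± 2.27 without WT sample 3 (limma adjusted p = 0.68) and did not pass the test. A probe set shared by adult alpha globin genes, 1452757_s_at, read 2.22, 5.31, 2.86 and 7.22 in the null samples, against 2.36, 2.83 and 14.85 in WT samples 1 to 3. The other probe sets shared by adult alpha globin genes were also highest in WT sample 3, at 15.65 on 1428361_x_at (3.24 to 7.47 in the other 6) and 11.37 on 1417714_x_at (2.13 to 2.14). Null samples 2 and 4 were thus above WT samples 1 and 2 on the alpha and below them on the beta probe set.

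In Crebbp+/- FL HSCs, Fech was the only member that could be tested, and it was higher than in WT on both of its tested probe sets without passing the call. On 1418699_s_at the levels were 8.0 and 7.93 in Crebbp+/- samples 1 and 2, against 7.05 and 6.72 in WT samples 1 and 2. On 1418698_a_at they were 7.27 and 7.13 in Crebbp+/- samples, against 5.86 and 6.08 in WT samples, which are below the minimum. By pair the difference was 0.94 and 1.21 on 1418699_s_at, and 1.41 and 1.05 on 1418698_a_at. The fitted difference was 1.08 ± 0.136 (SE) on 1418699_s_at, a fold of 2.11 with a 95% interval from 1.65 to 2.69, and 1.23 ± 0.155 on 1418698_a_at, a fold of 2.35 from 1.78 to 3.10. The unadjusted limma p was 0.000587 and 0.000575, and both adjusted to 0.0513 over 13332 probe sets, which is over the threshold of 0.05. So 0 of 2 member probe sets were called, where 51 of all 13332 (0.383%) were. By the unadjusted p and the fold alone, 4.68% of all probe sets were higher in Crebbp+/-, and both Fech probe sets were among them.

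The Fech difference moved across the threshold with the processing. Over 13 limma alternatives the adjusted p of 1418699_s_at ran from 0.00916, with an intensity trend in the variance, to 0.404 without the block for pairs, and it passed 0.05 in 4 of them. By the methods' t-test neither Fech probe set was among the 199 that passed. The change ran from 0.56, as the mean over all Fech probe sets, to 1.30 with technical replicate 2 only. On this probe set the technical replicates of WT sample 2 read 7.58 and 5.86, while those of the Crebbp+/- samples read 7.91 and 8.09 for sample 1 and 8.26 and 7.60 for sample 2. The third Fech probe set, 1449181_at, did not separate the groups and was below the minimum, with a mean of 3.96 in Crebbp+/- and 4.02 in WT samples, and 1427696_at was at 2.24 in all 4. Fech lies at chr18:64456542-64489098 on GRCm38.p6. Summed hepatocyte intensity beside it was 1076 and 1151 in Crebbp+/- samples, inside the 694 and 1620 of the WT samples, and the summed intensity of the 15 other erythroid membrane genes was 2021 and 2250 in Crebbp+/- and 1962 and 1979 in WT samples. Only 2 of these 15 genes reached the minimum in each of the 4 samples, so the sum is no broad measure of the list. Summed megakaryocyte intensity was 136 and 161 in Crebbp+/- samples, against 261 and 263 in WT samples, and both tested genes of that list were on the lower side in Crebbp+/- (median -0.94, both at an unadjusted p under 0.05, 0 called by limma). On the Crebbp+/- arrays 0 of the 8 megakaryocyte genes reached the minimum, against 1 or 2 on each WT array. Both tested genes thus passed the level filter only through other samples, so nothing is read from their direction. Gene by gene, 5 of 5 tested hepatocyte genes were on the higher side in Crebbp+/- (median 0.80), with 0 called and 0 at an unadjusted p under 0.05. The 8 tested sort marker and stem cell genes had a median of -0.34, with 0 called and 5 at that unadjusted p. Of all 13332 probe sets, 3199 had an unadjusted p under 0.05. The part of these lists in the Fech levels was not tested.

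**Figure D3:**
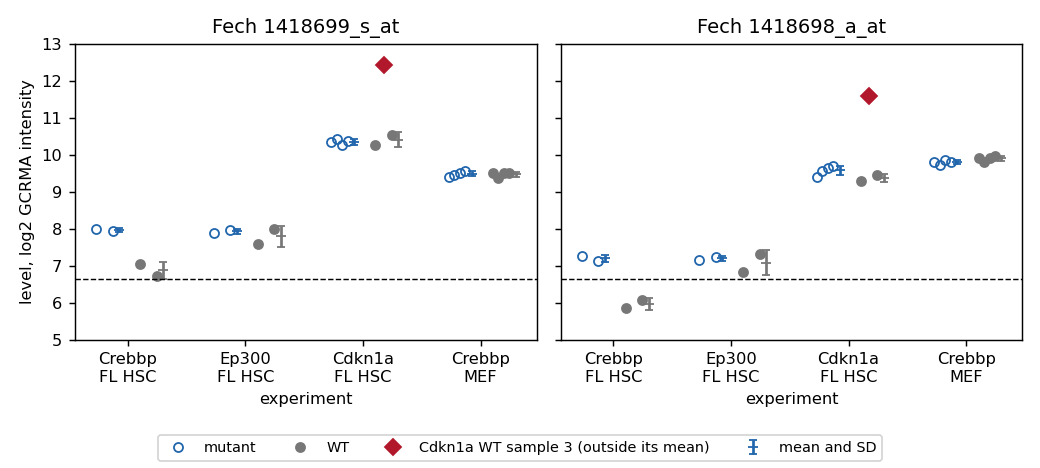
Fech levels (log2 GCRMA intensity, vertical axis) on its 2 brightest probe sets, 1 panel each, in the 4 experiments (horizontal axis), with mutant samples as open and WT samples as filled circles, mean and SD beside them (2 samples a group in the Crebbp and Ep300 FL HSC experiments, 4 and 2 in Cdkn1a, 4 and 4 in MEFs), Cdkn1a WT sample 3 as a diamond outside the mean, and the dashed line at log2(100). On 1418699_s_at the Crebbp FL HSC experiment reads 7.93 to 8.0 in mutant and 6.72 to 7.05 in WT samples. Mutant and WT levels overlap in the Ep300 experiment, and levels are not comparable across experiments.

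The other 9 members stayed below the minimum in all 4 samples of the Crebbp FL HSC experiment, so their differences were not tested. Gata1 read 3.62 and 3.37 in Crebbp+/- samples, against 3.82 and 4.32 in WT samples. Slc4a1 1434502_x_at read 2.93 and 3.45 in Crebbp+/- samples and 2.46 and 2.52 in WT samples, and in both Crebbp+/- samples 1 of the 2 arrays stood higher (3.31 against 2.55 in sample 1, 4.37 against 2.53 in sample 2). Klf1 read 2.61 and 2.28 in Crebbp+/- samples and 2.26 in both WT samples. Hba-x, Hbb-bh1, Alas2, Epb42 and Trim10 read between 2.20 and 2.50 in all 4. These values lie in the lowest part of the array's range, where a difference is not detectable at this signal.

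The adult beta globin probe set went the other way from Fech. It was chosen after its values were seen, and read 8.17 and 7.87 in Crebbp+/- samples, against 9.77 and 9.65 in WT samples. The technical replicate arrays of these 2 samples a group spanned 7.80 to 8.32 and 9.51 to 9.94. The change was -1.70 ± 0.111 with a limma adjusted p of 0.0486, a call, which held in 4 of 13 alternatives and was lost in 9, among them the fit without the block for pairs (adjusted p = 0.43). The adult alpha probe set 1452757_s_at was below the minimum, at 4.25 and 4.28 in Crebbp+/- and 2.30 and 2.49 in WT samples, while Hba-a2 read 10.21 and 9.5 in Crebbp+/- and 10.10 and 9.12 in WT samples, a change of 0.24 ± 0.126 (limma adjusted p = 0.314).

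**Figure D4:**
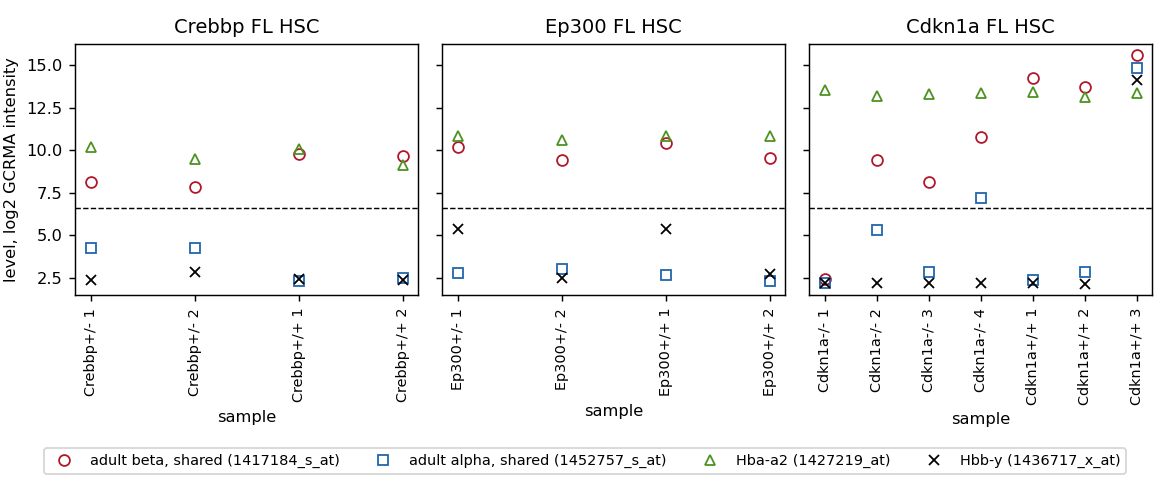
Levels (log2 GCRMA intensity, vertical axis) of 3 adult globin probe sets and of Hbb-y in each averaged sample (horizontal axis) of the 3 FL HSC experiments, 1 panel each, mutant samples left of WT samples, with the dashed line at log2(100). The shared adult beta probe set reads 8.17 and 7.87 in Crebbp+/- and 9.77 and 9.65 in WT samples. It reads 2.45 to 10.80 in the 4 Cdkn1a-/- and 13.73 to 15.59 in the 3 WT samples, a difference that did not pass the test.

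In Ep300+/- FL HSCs no member differed from WT by the test. Fech 1418699_s_at read 7.89 and 7.97 in Ep300+/- samples, against 7.60 and 8.0 in WT samples, a difference of 0.13 ± 0.136 with a 95% interval from -0.22 to 0.48, and the groups overlapped. Of 2 member probe sets tested, 0 were called, and 0 of all 13332 were (0%), with 104 past the fold at an unadjusted p under 0.05 and 11 by the paired test of the study's methods. The Crebbp effect on Fech minus the Ep300 effect was 0.95 ± 0.192 on 1418699_s_at and 1.11 ± 0.219 on 1418698_a_at, with limma adjusted p of 0.183 and 0.181. A difference between the 2 effects was thus not shown at this number of samples, and 0 of all 13332 probe sets passed it (0%), with 1331 past the fold at an unadjusted p under 0.05.

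Hbb-y stood above the minimum on 2 arrays of the Ep300 experiment, 1 of each genotype. Probe set 1436717_x_at read 8.30 on technical replicate 2 of Ep300+/- sample 1 and 8.33 on technical replicate 2 of WT sample 1, while technical replicate 1 of the same samples read 2.41 and 2.47. Probe set 1436823_x_at read 8.11 and 8.24 on the same 2 arrays, and 1450621_a_at 6.33 and 5.90. In each of these 2 samples Hbb-y 1436717_x_at gave the largest difference between technical replicates of all 45037 probe sets, 5.89 in the Ep300+/- and 5.86 in the WT sample, and the 3 Hbb-y probe sets were the only members that differed by more than 1. Hba-x, Hbb-bh1 and Alas2 stayed at the bottom of the range on both. The averaged Hbb-y levels were 5.36 and 2.51 in Ep300+/- samples, against 5.40 and 2.76 in WT samples, below the minimum, so Hbb-y was not tested. In the Crebbp experiment the highest Hbb-y value was 3.39, on 1 array of Crebbp+/- sample 2.

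Hepatocyte genes were higher on technical replicate 2 in all 4 Ep300 experiment samples, those without high Hbb-y included. Their summed intensity was 1557 on technical replicate 2 and 1015 on technical replicate 1 of Ep300+/- sample 1, and 1681 and 1148 on those of WT sample 1, with 3 and 4 of 10 genes at the minimum on technical replicate 2 and 1 on technical replicate 1. In the samples without high Hbb-y the sums were 1213 and 889 for Ep300+/- sample 2, and 1186 and 951 for WT sample 2, in the same order. The macrophage sums were 1129 and 645 for Ep300+/- sample 1, and 1336 and 638 for WT sample 1, with 944 and 912 for Ep300+/- sample 2 and 1029 and 828 for WT sample 2, again technical replicate 2 before 1. Only 1 of the 12 macrophage genes reached the minimum on each of these arrays, so these sums are no broad measure of the list. The sums of the 15 other erythroid membrane genes were 2658 and 2464 for Ep300+/- sample 1 and 2924 and 2763 for WT sample 1, with only 2 of the 15 at the minimum on each array. What the 2 arrays share besides their replicate number was not tested.

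**Figure D5:**
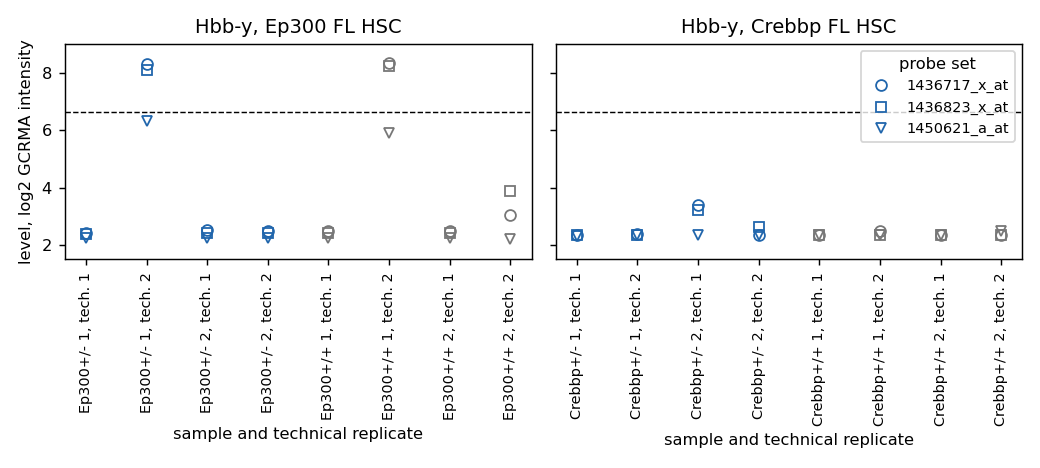
Hbb-y levels (log2 GCRMA intensity, vertical axis) on each array of the Ep300 (left) and Crebbp (right) FL HSC experiments, with mutant arrays in blue left of WT arrays in grey, 3 marker shapes for the 3 probe sets, and the dashed line at log2(100). Technical replicate 2 of Ep300+/- sample 1 and of WT sample 1 read 8.30 and 8.33 on 1436717_x_at, and no other array reaches the minimum.

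In MEFs, as in the Crebbp and Ep300 HSCs, only Fech had a level. It read 9.72 to 9.85 in Crebbp+/- and 9.81 to 9.97 in WT MEFs on its brightest probe set there, 1418698_a_at, lower in Crebbp+/- in 4 of 4 litters by 0.09 to 0.15. The mean difference was -0.11 ± 0.0622, with an interval from -0.27 to 0.05 (limma adjusted p = 0.76). On 1418699_s_at it was 0.02 ± 0.0676 and on 1449181_at -0.02 ± 0.0808. Of 3 member probe sets tested, 0 were called, and 0 of all 15502 were (0%), with 149 past the fold at an unadjusted p under 0.05 and 61 by the paired test of the study's methods. The other 9 members were below the minimum in all 8 samples, with Alas2 at 1.47 to 1.5 and Epb42 highest at 3.95 to 4.12.

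None of the other erythroid lists (heme synthesis and iron, transcription and signalling, and membrane genes) held a call by limma between genotypes. The lists use only probe sets with 1 gene symbol. The shared adult beta globin probe set, called in Crebbp+/- FL HSCs as given above, is therefore in none of them. Of 9 tested genes of heme synthesis and iron handling, 0 were called in Crebbp+/- FL HSCs (4 at an unadjusted p under 0.05). Their median change was -0.16, where the median of all probe sets tested was 0.05. An unadjusted limma p under 0.05 was reached by 3199 of all 13332 probe sets in that comparison. Of 14 erythroid transcription and signalling genes, 0 were called (3 unadjusted), median -0.11, and of 2 membrane genes 0 were, median 0.10. In Ep300+/- FL HSCs 0 of these were called and 0 had an unadjusted p under 0.05, where 570 of all 13332 probe sets did. The list medians were 0.00, -0.02 and -0.18. In Cdkn1a-/- FL HSCs without WT sample 3, 0 of 13, 0 of 15 and 0 of 3 genes of these lists were called (1, 1 and 0 unadjusted). Their medians were 0.09, -0.01 and -0.03, and 1288 of all 20460 probe sets had an unadjusted p under 0.05. In Crebbp+/- MEFs 0 of 12, 0 of 5 and 0 of 2 were called (3, 0 and 0 unadjusted), beside 1029 of all 15502 probe sets unadjusted.

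The genes most like the members across the FL HSC samples were sought over the 14 samples other than Cdkn1a WT sample 3, each centred on its experiment. Only 4 member probe sets of 2 genes, 3 of Fech and 1 of Gata1, reached the minimum in any of these samples, so the profile is theirs. Fech 1449181_at and Gata1 reached it only in Cdkn1a samples and lay below it in every Crebbp and Ep300 FL HSC sample. Zfp462 (Pearson r = 0.90), Taf4b (0.89), Wdr43 (0.89), Timm29 (0.88) and Igf2bp1 (0.88) were the closest of 10038 genes. Without Cdkn1a null sample 4, the highest point of the profile, their r was 0.81, 0.85, 0.83, 0.85 and 0.80. Over the 8 MEF samples, where the profile of 3 Fech probe sets spanned only 0.23, the closest of 8607 were D16Ertd472e (0.96), Plin3 (0.92), Col6a1 (0.92), Herc1 (0.90) and Ncoa1 (0.90). Samples of an experiment share its normalization, and these correlations are a description with no test.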

How the data were processed

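Expression in 31 Affymetrix whole-genome mouse arrays was analysed from the log2 values that the authors deposited, made with GCRMA (background correction from probe sequence, quantile normalization and summary per probe set), apart for each experiment. Such normalization pulls unexpressed probe sets to a common low value, so differences there have little meaning. Of 45101 probe sets, 64 controls were left out, and of the other 45037, 34945 had 1 gene symbol in the platform annotation, 932 several and 9160 none; a gene was named only from a probe set with 1 symbol, and all 20 probe sets of the 10 genes are reported. Technical replicates were averaged, which left 23 samples. The number of arrays limits the precision. No source says that the pools of a group came from separate matings, so p-values measure the spread between these samples, which may be technical.

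Probe sets whose highest sample reached an intensity of 100 (log2 6.64) were tested with limma 3.58.1 in R 4.3.3 (lmFit, eBayes), with p-values adjusted by Benjamini-Hochberg over all probe sets tested, and called at an adjusted p under 0.05 and a fold over 1.5. The Crebbp and Ep300 FL HSC samples shared 1 fit with a block for each pair of samples of the same number; the study's methods name a paired test, and pairing by sample number was chosen here. MEFs had a block per litter, and Cdkn1a samples were fitted without a block. Deviations from the group means correlated within pairs at 0.712 (Crebbp), 0.384 (Ep300) and 0.186 to 0.461 (MEF litters). Cdkn1a samples of the same number gave 0.252, 0.287 and -0.045, with WT sample 3 inside the WT mean. They were left unpaired because the 2 genotypes were obtained as separate stocks. The alternatives tried were other level filters, array centring, a variance trend, single technical replicates, no block or a block, each pair or sample left out, and the methods' t-test (paired p under 0.05, fold over 1.5, interquartile range of at least 0.5). The fits were tested on simulated data. Tables used Python 3.11.15, pandas 2.3.3 and numpy 2.4.6.

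Outside the members, a gene was named where it was the highest or lowest of its list in Cdkn1a WT sample 3 against its other 6 samples, passed the call, was among the 5 widest gaps of that sample or was among the 5 genes most like the members. The members and the lists were chosen with earlier results of these data known.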

Additional observations from a re-analysis of the deposited data

Results flagged for a closer look

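Slc4a1 on probe set 1416464_at read 2.87 in Cdkn1a-/- sample 4, while the other 3 null samples read 2.05, 2.08 and 2.08. The gap to the nearest of them, as a share of the group's range, was beyond Dixon's 95% critical value for 4 samples. It was the only 1 of 7 groups so tested, those of 4 samples with a range of at least 0.25, and chance passes about 1 in 20. The value lies far below the minimum of log2(100).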

How the results depend on the processing

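The count of calls between Crebbp+/- and WT FL HSCs was 51 by the limma fit of all 8 samples. It was 0 without the level filter, 0 with only the 4 samples of the experiment, 0 with technical replicate 1 only and 0 with technical replicate 2 only, and 0 with any 1 of the 4 numbered pairs left out. It was 173 where every group mean had to reach the minimum, 584 with the interquartile range filter, 208 with each array centred on its median, 876 with an intensity trend in the variance, and 199 by the methods' t-test (0 after Benjamini-Hochberg), with 0 of 2 Fech probe sets tested among them. For Ep300 it was 0, and 11 by that t-test (0 after adjustment). For the difference between the effects it was 0, 69 with the trend, and 351 by the t-test (0 after adjustment), which held 1 Fech probe set. For Cdkn1a it was 85, 42 without the filter, 29 where every group mean had to reach the minimum, 548 by the t-test (141 after adjustment), and 38 to 87 with 1 sample left out (43, 38, 51 and 38 without null samples 1 to 4, and 52, 87 and 83 without WT samples 1 to 3). For MEFs it was 0, 61 by the t-test (0 after adjustment), and 0 to 2 with 1 litter left out, 2 without litter 1. The cause was not tested.

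Without the block for pairs the count was 0 for Crebbp FL HSCs and 2 for MEFs, and a replicate block on numbers 1 to 3 gave 6 calls for Cdkn1a. The Fech change in Crebbp+/- FL HSCs was positive in every alternative run. Signal limits the other 9 genes: outside Cdkn1a WT sample 3, Gata1 alone of them reached the minimum in an averaged sample.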
